A study of Mus musculus with 84 samples.

Results

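The Tmem181 genes of the mouse are a protein-coding gene, Tmem181a, and a pair of genes annotated as transcribed pseudogenes, Tmem181b-ps and Tmem181c-ps. They are 3 of the 55401 gene IDs in the count files, and all 3 passed the filter on low counts that kept 17941 genes for testing. The set was selected on the CPM of Tmem181b-ps, which had been seen at about 3 times its vehicle level after DOI, so the values of Tmem181b-ps are given here as a description with no test. Tmem181a and Tmem181c-ps were taken by their names, in the same contrasts and the same mice, and their tests are not independent of that choice.

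RNA was counted in NeuN-sorted nuclei of the frontal cortex of mice of the 129S6/SvEvTac strain aged 12 weeks. NeuN marks the nuclei of neurons, and sorting for it enriches them. The 4 groups were mice given vehicle and mice taken 24 h, 48 h or 7 days after DOI (2,5-dimethoxy-4-iodoamphetamine), a psychedelic that activates the serotonin 2A receptor. Each group held 4 mice with 2 libraries each, no group carried a transgene or deletion according to the labels, and vehicle mice are a single group for all 3 times. The question of the design was how neuronal RNA differs from vehicle at each time after 1 exposure.

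Tmem181 is a membrane protein that crosses the membrane several times. It belongs to a small family with a GOLD-type luminal domain, the GOST proteins, several of which work in membrane trafficking. It has been reported as a host factor for a bacterial toxin, cytolethal distending toxin. Pseudogenes are copies of genes that have lost the ability to make the full protein. Some are still transcribed, and their RNA can be hard to tell from that of the parent gene because the sequences are alike.

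All 3 genes lie on chromosome 17 of GRCm38. Tmem181a (ENSMUSG00000038141) spans chr17:6256860-6308314 on the plus strand, with 18 exons and 6548 counted bases. Tmem181b-ps (ENSMUSG00000096780) spans chr17:6438524-6467022 on the minus strand, with 18 exons and 4187 counted bases. Tmem181c-ps (ENSMUSG00000093880) spans chr17:6613753-6639790, also on the minus strand, with 16 exons and 1386 counted bases. The copies therefore keep introns, and each has a Dynlt1 gene, which encodes a dynein light chain, at its 3′ end. Tmem181a overlaps Dynlt1a, which lies on the other strand, over 580 of its counted bases (8.86%). The counting command has no overlap or strand option. How reads in these bases were assigned, and what that does to the level of Tmem181a per kilobase, was not tested. Tmem181b-ps ends 2227 bases from Dynlt1b, and Tmem181c-ps ends 3978 bases from Dynlt1c, while neither copy shares exon bases with another gene.

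The exon models show how alike the copies are. Tmem181a and Tmem181b-ps have 14 exons of identical length in the same order, 1238 bases in all, and Tmem181a and Tmem181c-ps have 13, which come to 1157 bases. Where an exon has variants of several lengths, 1 variant of equal length was enough for a match. Variants of Tmem181a and Tmem181b-ps that span several separate exons are left out of the exon numbers and lengths, here and above. Their bases are among the counted bases, while Tmem181c-ps has no such variant. The first shared exon is the third of Tmem181a, of 104 bases. The exons of 215 and 121 bases that open Tmem181a have no counterpart of equal length in either copy, and neither has its ninth exon, of 100 bases. Tmem181b-ps ends in exons of up to 1001 and 320 bases that the model of Tmem181c-ps lacks. Equal length does not show equal sequence, and how many bases separate the copies was not measured here. The counting command in the file headers has no option that adds multi-mapping reads, and how the aligner placed or marked reads that fit more than 1 copy is not given in the sources used here. How many reads of each copy could be placed in only 1 location was not tested, so the split of counts between the 3 genes is uncertain.

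**Figure D1:**
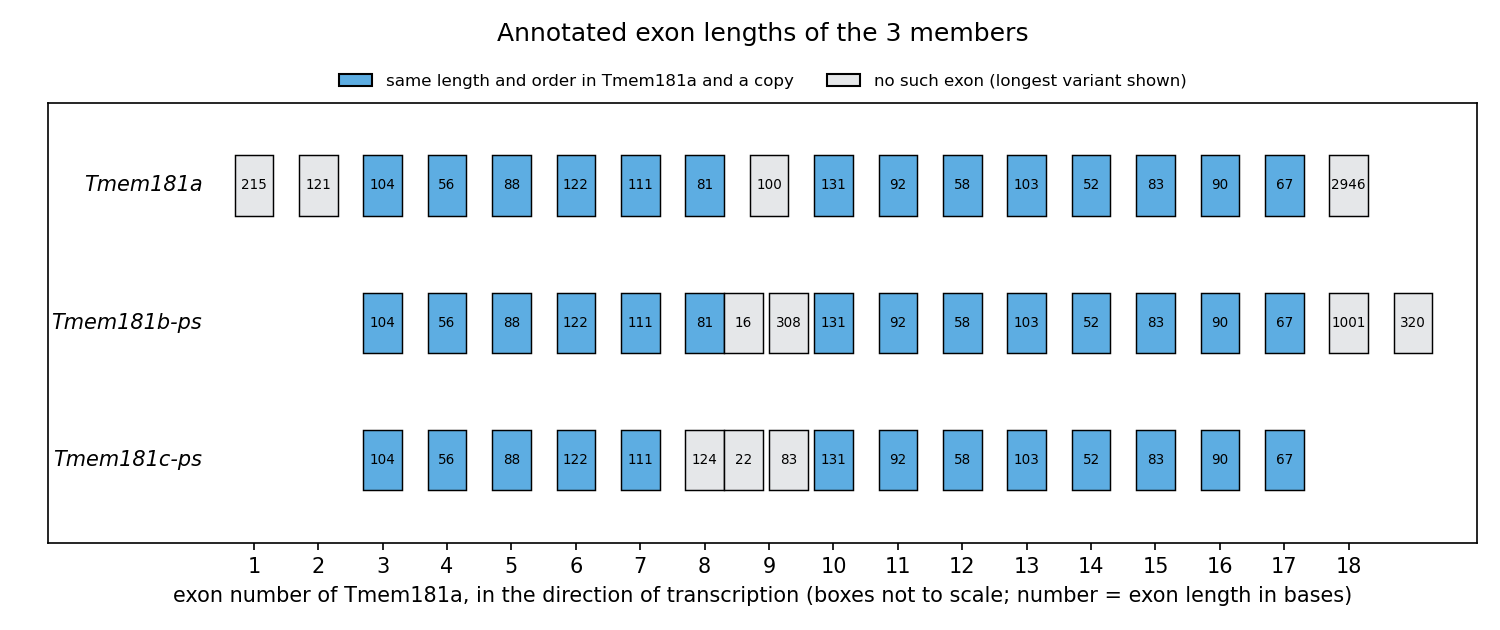
Exon lengths (number in each box, in bases) of the annotated models. Boxes are placed by exon number of Tmem181a on the horizontal axis and by gene on the vertical, and are not drawn to scale. Variants that span several separate exons are left out. Blue exons have the same length in Tmem181a and a copy, 14 in Tmem181b-ps and 13 in Tmem181c-ps, and the first exons of Tmem181a have no blue partner.

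The starts of Tmem181a are shown because they belong to the part of the gene that has no counterpart of equal length in the models of the copies. RefSeq (GRCm38.p6) gave windows for 1 of the 3 genes, Tmem181a, from 250 bases before to 50 bases after each of 2 starts, at chr17:6256610-6256909 and chr17:6270220-6270519 on the plus strand. Capitals mark the E-box CACGTG, the only motif marked.
Tmem181a start 1: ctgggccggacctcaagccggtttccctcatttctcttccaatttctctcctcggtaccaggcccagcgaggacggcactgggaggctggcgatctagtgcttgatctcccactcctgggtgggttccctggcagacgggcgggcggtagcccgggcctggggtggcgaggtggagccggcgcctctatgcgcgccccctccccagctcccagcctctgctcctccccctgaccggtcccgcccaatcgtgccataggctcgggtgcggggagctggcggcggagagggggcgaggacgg
Tmem181a start 2: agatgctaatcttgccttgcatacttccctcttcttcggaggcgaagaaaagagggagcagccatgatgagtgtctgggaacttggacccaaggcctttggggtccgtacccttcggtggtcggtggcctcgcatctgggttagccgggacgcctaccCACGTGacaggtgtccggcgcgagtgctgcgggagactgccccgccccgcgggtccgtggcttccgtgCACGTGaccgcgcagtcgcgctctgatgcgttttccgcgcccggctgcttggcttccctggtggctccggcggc
The first window held 24 CpG and the second 29, against a median of 7 over all windows of this length. An E-box occurred 2 times in the second window and 0 times in the first, and 7.15% of the 32851 windows of the table hold one. The motifs searched were palindromes or were searched on both strands. The CCAAT box CCAAT was found 2 times in the first window and 0 times in the second (37.4% of windows hold it), and the GC box GGGCGG 3 times and 1 time (35.7%). The cAMP response element TGACGTCA and the AP-1 element TGACTCA were absent from both windows, and 1.79% and 5.20% of windows hold them. These are letter matches and nothing more.

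Libraries held 2763704 to 7436451 counts. Mouse totals were 9151680 to 11517452 in vehicle. They were 6441396 to 8090559 at 24 h, 5834248 to 7344355 at 48 h, while 7 days mice had 6972577 to 12354785, so no mouse at 24 h or 48 h reached the vehicle depth. A count of 3 was worth 0.254 to 0.502 CPM (TMM-scaled counts relative to library size), far below every value of the members. The level of the 4 neuron markers summed to 3580 to 5648 CPM over the mice, against 144 to 336 CPM for 4 oligodendrocyte markers, 12.6 to 32.9 CPM for 3 markers of their precursors, 51.1 to 148 CPM for 4 astrocyte markers, 37.6 to 111 CPM for 4 microglia markers and 0 to 5.03 CPM for 3 endothelial markers. The sum of 4 excitatory neuron markers was 396 to 461 CPM in vehicle, 773 to 2296 CPM at 24 h, 1320 to 2053 CPM at 48 h, and 404, 1291, 384 and 1134 CPM in 7 days mice 1 to 4. The sum of 4 inhibitory neuron markers was 757 to 1024 CPM in vehicle, 443 to 660 CPM at 24 h and 417 to 832 CPM at 48 h, and 882, 633, 592 and 640 CPM in 7 days mice 1 to 4. Nearly all of that sum was Gad1 and Gad2, and its 4 genes went both ways, with 1 called higher and 2 lower at 24 h and 1 higher and 1 lower at 48 h. The sum of 4 striatal neuron markers was 77.1 to 110 CPM in vehicle, 51.6 to 57.3 CPM at 24 h and 46.1 to 127 CPM at 48 h. In 7 days mice 1 to 4 the striatal sum was 163, 332, 99.6 and 272 CPM, highest in mice 2 and 4. The part of these marker levels in the members' values was not tested. In bulk nuclei, fewer nuclei of a type and less RNA per nucleus cannot be told apart.

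Tmem181b-ps, the copy with the highest level, had 260.9, 336.8, 297.7 and 322.2 CPM in vehicle mice 1 to 4, and 1008, 963, 1028 and 996.2 CPM at 24 h. At 48 h it had 999.9, 1131, 897.8 and 982.6 CPM, and at 7 days 257.9, 626.7, 403 and 670.5 CPM. Every 24 h and 48 h mouse stood above every vehicle mouse, while at 7 days mice 2 and 4 were above the vehicle range, mouse 3 was slightly above it and mouse 1 was below it. The mean ± SD (n = 4) was 304 ± 33.2 CPM in vehicle, then 999 ± 27.3, 1003 ± 96.2 and 490 ± 194 CPM in the 24 h, 48 h and 7 days mice. The fitted log2 differences from vehicle were 1.71 (SE 0.23, 3.28-fold) at 24 h, 1.72 (SE 0.23, 3.29-fold) at 48 h and 0.69 (SE 0.23, 1.61-fold) at 7 days. These are the values that chose the gene, and no test is given for them.

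**Figure D2:**
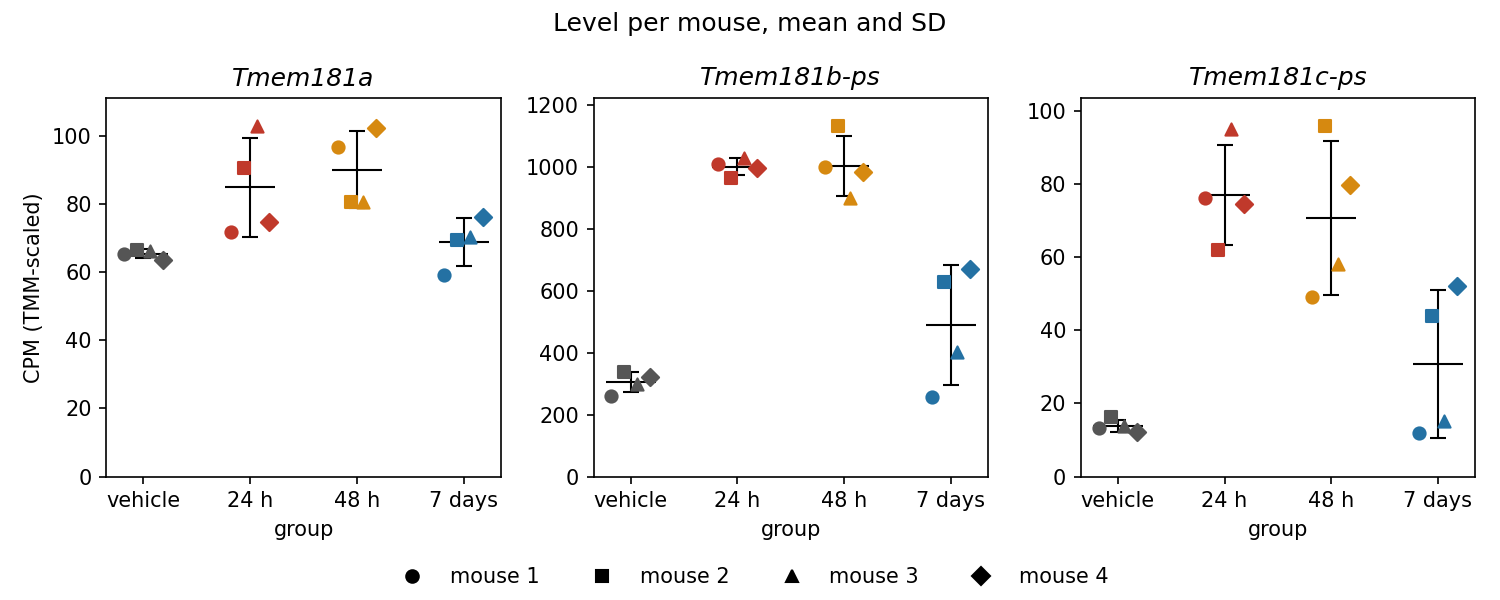
CPM (TMM-scaled) of each Tmem181 gene on the vertical axes, by group on the horizontal axes; each point is a mouse, the bar is the mean and the whisker the SD (n = 4). The copies stand apart from vehicle in every mouse at 24 h and 48 h and fall into a low and a high pair at 7 days, with Tmem181b-ps at 257.9 and 403 or 626.7 and 670.5 CPM.

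Tmem181c-ps, the shorter copy, rose at 24 h and 48 h. Its values were 13.2, 16.3, 13.8 and 12.3 CPM in vehicle mice 1 to 4, 76.3, 61.9, 95.2 and 74.6 CPM at 24 h, and 49.3, 95.9, 58.1 and 79.8 CPM at 48 h. No DOI mouse of these times overlapped the vehicle mice. At 7 days it had 12.0, 43.9, 15.3 and 52.1 CPM, with mice 1 and 3 inside or below the vehicle range and mice 2 and 4 well above it.

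With edgeR (quasi-likelihood, p-values Benjamini-Hochberg adjusted over all 17941 genes), the log2 difference of Tmem181c-ps from vehicle was 2.47 (SE 0.37, adjusted p = 0.00153, 5.54-fold, higher in 4 of 4 mice) at 24 h. It was 2.35 (SE 0.37, adjusted p = 0.00155, 5.09-fold, higher in 4 of 4 mice) at 48 h by the same edgeR test. Both calls were lost with the level of CT010467.1, a feature related to ribosomal RNA, as a covariate (log2 differences of 0.99 and 0.81, edgeR adjusted p = 0.958 and 0.995). At 7 days edgeR gave 1.14 (SE 0.36, adjusted p = 0.133), which did not pass the threshold of 0.05. A call was common in this series: 24.2% of all genes tested passed at 24 h (13.8% higher and 10.4% lower), and 30.1% at 48 h (16.8% higher and 13.3% lower). Groups did not overlap for 35.7% of genes at 24 h, 38.1% at 48 h and 5.85% at 7 days. At 7 days edgeR called 0% of genes, with 3012 at an unadjusted p below 0.05 and 796 called by DESeq2. In fold change, 683 of the 17941 genes stood above Tmem181c-ps at 24 h and 855 at 48 h.

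Tmem181a, the parent gene, had smaller differences from vehicle than either copy. It had 65.3, 66.4, 66.3 and 63.7 CPM in vehicle mice 1 to 4, the narrowest spread of any group of the 3 genes, and 71.7, 90.6, 102.9 and 74.7 CPM at 24 h. At 48 h it had 96.8, 80.7, 80.6 and 102.5 CPM, and at 7 days 59.1, 69.6, 70.4 and 76.1 CPM. The 24 h and 48 h mice all stood above the vehicle mice, and the 7 days mice overlapped them.

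The mean ± SD of Tmem181a was 65.4 ± 1.28 CPM in vehicle, then 85.0 ± 14.6, 90.1 ± 11.2 and 68.8 ± 7.09 CPM in the 24 h, 48 h and 7 days mice (n = 4 each). The edgeR log2 difference at 48 h was 0.46 (SE 0.16, adjusted p = 0.0367), higher in 4 of 4 mice. At 24 h it was 0.38 (SE 0.16), which did not pass in edgeR (adjusted p = 0.0902), although the groups did not overlap. At 7 days it was 0.07 (SE 0.16, edgeR adjusted p = 0.852). The 48 h call did not hold in every setting: edgeR's adjusted p was 0.254 with no filter on low counts, and it was above 0.05 with any of 6 of the 8 mice of the comparison left out (each vehicle mouse, and 48 h mice 1 and 4), reaching 0.114 without mouse 4. The call was also lost with the mouse number as a replicate block (edgeR adjusted p = 0.0585). With the level of CT010467.1 as a covariate it was lost too (edgeR adjusted p = 0.995).

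Between the DOI times, edgeR called 0% of genes at 48 h against 24 h (338 at an unadjusted p below 0.05, 0 by DESeq2) and 0% at 7 days against 48 h (2959 unadjusted, 405 by DESeq2). From 24 h to 48 h the log2 difference was 0.09 for Tmem181a, 0.01 for Tmem181b-ps and -0.12 for Tmem181c-ps (SE 0.35). From 48 h to 7 days it was -0.39 (SE 0.16) for Tmem181a, -1.03 (SE 0.23) for Tmem181b-ps and -1.20 (SE 0.36) for Tmem181c-ps. The edgeR adjusted p of the last comparison was 0.241 for Tmem181a and 0.155 for Tmem181c-ps. It shares the 48 h mice with the comparison against vehicle.

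Levels between the genes were compared per kilobase of counted exon. The counted bases of Tmem181a and Tmem181b-ps include variants that span several separate exons, and those of Tmem181c-ps do not. What this does to the levels per kilobase was not tested. In vehicle the level of Tmem181b-ps was 72.7 ± 7.93 CPM per kb, that of Tmem181c-ps 10.0 ± 1.23 and that of Tmem181a 9.99 ± 0.196 (SD, n = 4). The last pair differed by less than their spread, and Tmem181b-ps stood above both in every mouse. At 24 h the order on this scale was Tmem181b-ps with 238.5 ± 6.51, Tmem181c-ps with 55.6 ± 9.91 and Tmem181a with 13.0 ± 2.22 CPM per kb, with no overlap between any of the 3. At 48 h they had 239.5 ± 23.0, 51.1 ± 15.2 and 13.8 ± 1.71 CPM per kb, again without overlap. In vehicle, Tmem181b-ps ranked 524 of 17941 genes by CPM, Tmem181a 4021 and Tmem181c-ps 9290. Tmem181b-ps had more CPM than each of the 122 other genes with a pseudogene symbol that were tested.

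Ratios within a mouse do not depend on how libraries were scaled. The count of Tmem181b-ps was 3.99 to 5.07 times that of Tmem181a in vehicle mice, 9.99 to 14.0 times at 24 h and 9.59 to 14.0 times at 48 h. At 7 days it was 4.36, 9.01, 5.72 and 8.81 times in mice 1 to 4, so mouse 1 lay in the vehicle range and the others above it. The ratio of Tmem181c-ps to Tmem181a was 0.193 to 0.245 in vehicle, 0.683 to 1.06 at 24 h and 0.509 to 1.19 at 48 h, and 0.203, 0.631, 0.217 and 0.684 in 7 days mice 1 to 4. Tmem181c-ps also gained on Tmem181b-ps, whose count was 19.7 to 26.3 times that of Tmem181c-ps in vehicle and 10.8 to 15.6 times at 24 h, without overlap. At 48 h that ratio was 11.8 to 20.3 and overlapped vehicle through mouse 1.

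Of the counts of the 3 genes together, Tmem181a held 17.2 ± 1.60% in vehicle and 7.31 ± 1.11%, 7.80 ± 1.16% and 12.8 ± 4.14% in the 24 h, 48 h and 7 days mice. Tmem181b-ps held 79.2 ± 1.81%, 86.1 ± 1.54%, 86.2 ± 1.26% and 82.4 ± 2.81%, and Tmem181c-ps 3.63 ± 0.381%, 6.61 ± 0.907%, 6.02 ± 1.36% and 4.81 ± 1.67%, in the same order (SD, n = 4). Per kilobase the share of Tmem181b-ps was level, with 78.3%, 77.8%, 78.9% and 78.4% in the 4 groups. The counts behind these shares were 3595 to 9678 per mouse.

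The 2 libraries of a mouse gave close values for the higher genes. The fold between them had a median of 1.04 and a maximum of 1.12 for Tmem181b-ps, 1.06 and 1.24 for Tmem181a, and 1.42 and 2.02 for Tmem181c-ps, the gene with the fewest counts. With the first library of each mouse alone, the log2 difference of Tmem181c-ps from vehicle was 2.53 at 24 h and 2.72 at 48 h, and with the second alone 2.51 and 2.01. With all mice thinned to the smallest total (5834248 counts) it was 2.46 at 24 h and 2.33 at 48 h, so it was as large at equal depth.

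Another feature was also low in vehicle and high at 24 h and 48 h. CT010467.1, annotated as Rn18s-rs5, a sequence related to 18S ribosomal RNA, had 72.3 to 110 CPM in vehicle, 3258 to 15064 at 24 h and 5107 to 16124 at 48 h. At 7 days it had 87.3, 6171, 63.4 and 4622 CPM in mice 1 to 4, so mice 2 and 4, which had the high values of both copies, also had the high values of CT010467.1. Within 48 h the order was different: mouse 2 had the lowest CT010467.1 (5107 CPM) with the highest Tmem181b-ps and Tmem181c-ps, and mouse 1 had the highest CT010467.1 (16124 CPM) with the lowest Tmem181c-ps. The split at 7 days was seen across all genes: on the first principal component, 7 days mice 1 and 3 were at -87.5 and -82.9 beside vehicle at -94.6 to -69.0, and mice 2 and 4 were at 52.1 and 64.8 beside the 24 h and 48 h mice at 22.0 to 66.2. The group explained 75.1% of the variance of the log2 CPM of CT010467.1 over the 16 mice. With log2 CPM of CT010467.1 as a covariate in edgeR, the log2 difference of Tmem181c-ps was 0.99 at 24 h and 0.81 at 48 h. Tmem181a was then at 0.23 (adjusted p = 0.995) at 48 h, Tmem181b-ps was at 0.90 and 0.86 at 24 h and 48 h, and edgeR called 0 genes of all in both comparisons (870 and 691 at an unadjusted p below 0.05). Group and covariate overlap in this design, and what either contributes cannot be told apart.

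**Figure D3:**
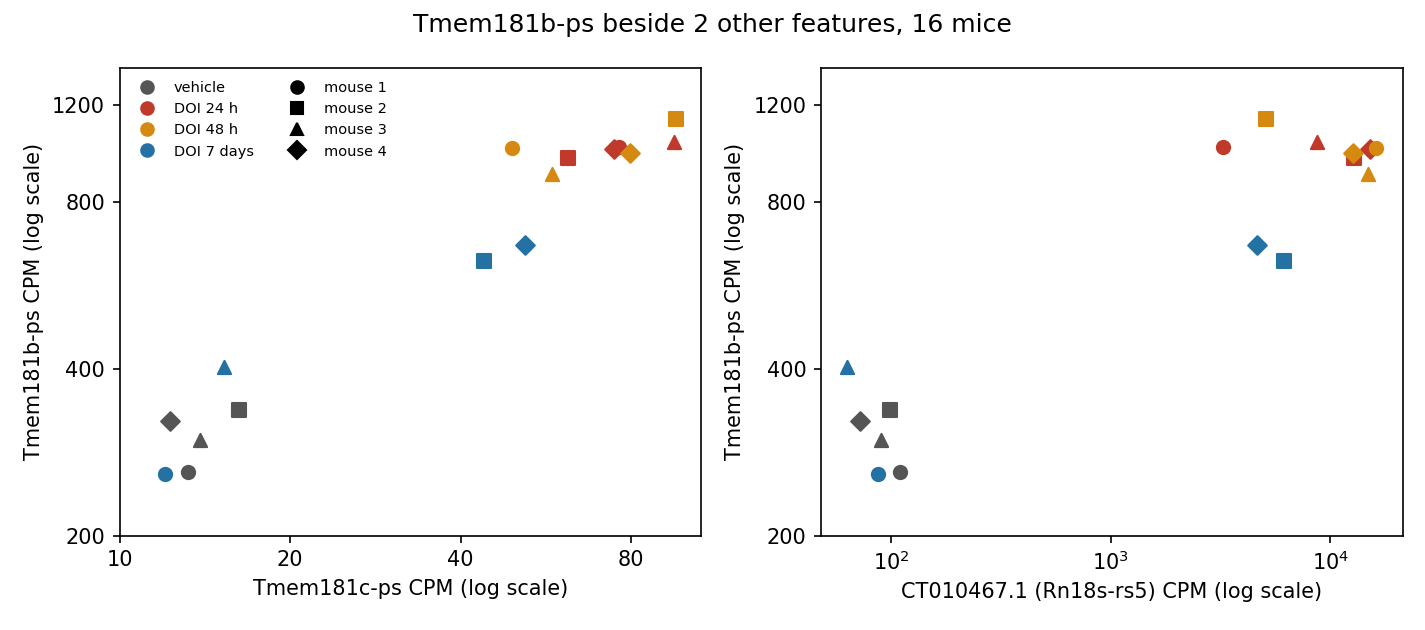
CPM of Tmem181b-ps (vertical, log scale) against CPM of Tmem181c-ps (left) and of CT010467.1 (right), both on log scales; each point is a mouse, colours are groups and symbols are mouse numbers. In both panels 7 days mice 1 and 3 lie beside the vehicle mice. On the Tmem181b-ps axis mice 2 and 4, at 626.7 and 670.5 CPM, lie between vehicle and the earlier times. On the Tmem181c-ps axis mouse 2, at 43.9 CPM, also lies between them, and mouse 4, at 52.1 CPM, lies in the range of the 48 h mice. On the CT010467.1 axis both lie in the range of the earlier times.

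None of the 4 Dynlt1 genes passed the edgeR test at any time. Dynlt1b, next to Tmem181b-ps, had 13.7 ± 3.48 CPM in vehicle, 12.4 ± 2.91 at 24 h and 11.2 ± 1.16 at 48 h, with edgeR log2 differences of -0.15 (SE 0.25, adjusted p = 0.693) and -0.30 (SE 0.25, adjusted p = 0.377). Dynlt1c, next to Tmem181c-ps, had 4.60 ± 0.874 CPM in vehicle, 2.63 ± 1.11 at 24 h and 3.25 ± 1.65 at 48 h, with log2 differences of -0.81 (SE 0.43, edgeR adjusted p = 0.174) and -0.51 (SE 0.43, edgeR adjusted p = 0.379). Dynlt1a, which overlaps Tmem181a, was at -0.03 (SE 0.26) and 0.04 (SE 0.26) on the log2 scale, with 10.5 ± 2.55 CPM in vehicle. Dynlt1f, at 0.878 ± 0.226 CPM in vehicle, was near the limit of detection. At 7 days the log2 differences were 0.61 (SE 0.26) for Dynlt1a and -0.06 (SE 0.25) for Dynlt1b. They were -0.86 (SE 0.43) for Dynlt1c and 0.56 (SE 0.67) for Dynlt1f. Of these, Dynlt1c alone did not overlap vehicle at 7 days, as was seen for 5.85% of all genes tested. How alike the 4 Dynlt1 sequences are, and how reads that fit more than 1 of them were counted, was not measured here, so their single values are uncertain. Their sum was 29.7 ± 4.47 CPM in vehicle and 26.5 ± 1.95, 25.5 ± 1.97 and 33.0 ± 4.21 CPM in the 24 h, 48 h and 7 days mice (SD, n = 4), with overlap between vehicle and each DOI group.

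Of 40 other genes within 500 kb of the members, 12 were tested. Of these, 0 rose and 0 fell at 24 h, 0 rose and 1 fell at 48 h, and 0 passed at 7 days. The shares of all genes tested that passed at these times were 24.2%, 30.1% and 0%. The neighbours had medians on the log2 scale of -0.04, -0.16 and -0.01 against 0.03, 0.02 and 0.02 for all genes. The 1 that fell was Tagap1, a T-cell activation GTPase-activating protein gene, from 12.3 to 7.35 CPM (log2 difference -0.74, SE 0.27, edgeR adjusted p = 0.0474). With any 1 mouse of that comparison left out, or with another scaling, 0 of the 12 passed at 48 h, while 1 passed in DESeq2 and 2 when edgeR was given only the 2 groups compared. Serac1, whose protein remodels phosphatidylglycerol in mitochondria, was at -0.70 (SE 0.28) at 24 h without passing (edgeR adjusted p = 0.0757). Ezr, which encodes the membrane linker ezrin, was at 1.52 (SE 0.79, edgeR adjusted p = 0.163), from 0.765 to 2.20 CPM. Synj2, a synaptojanin phosphatase gene, Gtf2h5, a subunit of transcription factor TFIIH, Tulp4 and Snx9, a sorting nexin gene, were between -0.32 and 0.18 at 24 h. Rsph3b, a radial spoke gene of cilia, was at 0.01, and its relative Rsph3a, elsewhere on the chromosome, at -0.27 (SE 0.32).

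**Figure D4:**
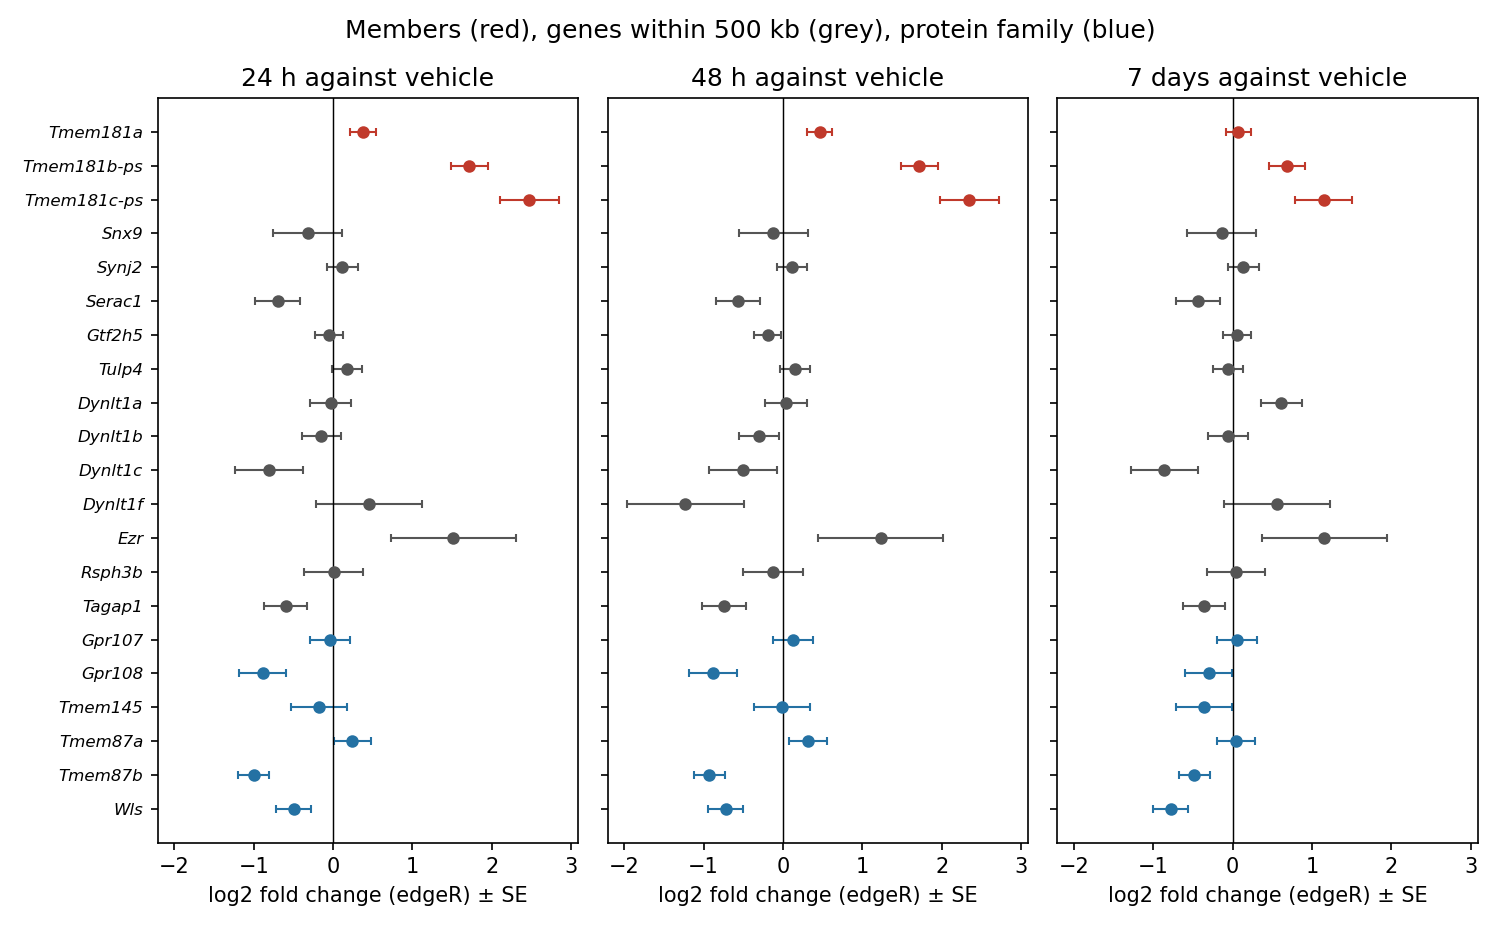
Log2 fold change from vehicle (horizontal, edgeR, bars are SE) of the 3 Tmem181 genes (red), of the 12 tested genes within 500 kb in order of position (grey) and of 6 protein family genes (blue), at 24 h, 48 h and 7 days. The copies lie at 1.71 and 2.47 at 24 h, while their Dynlt1 neighbours lie near or below 0 except Dynlt1f, at 0.45 with an SE of 0.67.

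None of the other genes listed from the protein family of Tmem181a, which may not be all of them, passed in the higher direction. Of 6 such genes listed, all tested, 0 rose and 2 fell at 24 h, 0 rose and 3 fell at 48 h and 0 passed at 7 days. Of all genes tested, 10.4% fell at 24 h and 13.3% at 48 h. The family medians on the log2 scale were -0.34, -0.36 and -0.33, against 0.03, 0.02 and 0.02 for all genes. Tmem87b, which encodes a Golgi membrane protein, fell from 175 CPM in vehicle to 87.9 CPM at 24 h and 92.1 CPM at 48 h, with log2 differences of -0.998 (SE 0.20, edgeR adjusted p = 0.00337) and -0.93 (SE 0.20, edgeR adjusted p = 0.00339) and no overlap with vehicle. Gpr108 fell from 85.1 CPM to 45.9 and 46.1 CPM, with log2 differences of -0.89 (SE 0.30, edgeR adjusted p = 0.0395) and -0.88 (SE 0.30, edgeR adjusted p = 0.0345). Wls, the carrier of Wnt proteins to the cell surface, passed at 48 h with -0.72 (SE 0.22, edgeR adjusted p = 0.0218), from 177 to 107 CPM, although the groups overlapped. Gpr107, Tmem87a and Tmem145 were at -0.04, 0.24 and -0.18 at 24 h and did not pass. The family count was 1 to 2 at 24 h and 1 to 3 at 48 h when 1 mouse was left out, with 1 at 48 h without vehicle mouse 1 or 48 h mouse 2. With the CT010467.1 covariate 0 passed at both times. At 7 days 1 passed with no filter, in DESeq2 and without mouse 1, and 2 without mouse 3.

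Other annotated pseudogenes were a mixed group: of 122 tested of 1554 with a pseudogene symbol, 12 rose and 1 fell at 24 h (10.7%), and 17 rose and 7 fell at 48 h (19.7%), with 0 at 7 days, beside 24.2% and 30.1% of all genes at the earlier times. The median log2 difference of these 122 was 0.22 at 24 h, 0.19 at 48 h and 0.08 at 7 days. Of the 122, 11 had a larger log2 difference than Tmem181b-ps at 24 h and 6 a larger one than Tmem181c-ps. The 1 that fell at 24 h, named after its value was seen, was Rnf170-ps, with a log2 difference of -1.29 (edgeR adjusted p = 0.0325). Leaving out 1 mouse gave 6 to 14 called pseudogenes at 24 h (fewest without vehicle mouse 2 or 24 h mouse 4) and 9 to 21 at 48 h (fewest without vehicle mouse 2 or 48 h mouse 2). At 24 h 21 were called in DESeq2, 24 with only the 2 groups compared and 0 with the CT010467.1 covariate, and at 48 h 31, 31 and 0. At 7 days 5 were called with no filter, in DESeq2, and without 7 days mouse 1 or 3.

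The genes most like Tmem181b-ps were ranked by Pearson's r of log2 CPM over the 16 mice among 12791 genes, as a description of mice that differ by group. Among the highest were Gak, the kinase of clathrin uncoating, with r = 0.979, the long non-coding RNA gene E530011L22Rik with 0.975, the splicing factor Sf1 with 0.975 and the RNA-binding protein gene Dazap1 with 0.975. Mean CPM of Gak was 34.9 in vehicle, then 112, 110 and 60.3 in the DOI groups in order of time. The most opposite were Cmas, which activates sialic acid, with r = -0.978, the kinase gene Slk with -0.969, Sez6 with -0.965, Hnrnpab with -0.964 and the endosomal GTPase gene Rab5a with -0.963. Mean CPM of Cmas was 203 in vehicle, then 63.2, 65.2 and 137 in the same order. In all, 416 genes had r over 0.9 and 224 below -0.9, so the pattern was widely shared. Among the members r was 0.976 for Tmem181b-ps with Tmem181c-ps and 0.80 and 0.77 for Tmem181a with each. After each group's mean was taken off, r was 0.886 for the copies and 0.38 and 0.33 for Tmem181a with Tmem181b-ps and Tmem181c-ps. On that scale r with Tmem181b-ps was 0.886 for Gak, 0.905 for E530011L22Rik, 0.864 for Sf1 and 0.903 for Dazap1. For the most opposite genes it was -0.901 (Cmas) to -0.823 (Slk). These genes were picked by r over the 16 mice, and an r of this size was not particular to the copies.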

How the data were processed

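RNA of NeuN-sorted nuclei was counted in 32 libraries of 16 mice, 4 mice per group and 2 libraries per mouse. The authors' deposited files hold whole-number counts for each gene. They come from featureCounts 2.0.0 over the exons of each GRCm38 gene, per the file headers, where multi-mapping, overlap, pair and strand options do not appear. Per the submitters' processing notes, Bowtie2 2.4.1 and Trim Galore 0.6.5 were among the tools, with no role given. The annotation is built on another mouse strain than 129S6/SvEvTac, and strain differences in mapping were not tested.

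Libraries of a mouse were summed. Genes kept by filterByExpr were scaled by TMM, and 1 quasi-likelihood fit (edgeR 4.0.16, R 4.3.3) covered all 4 groups, with a Benjamini-Hochberg adjusted p under 0.05 as the threshold. The standard error was the log2 fold change divided by the square root of F. DESeq2 1.42.0, other scalings and filters, single libraries, equal depth, a CT010467.1 covariate, a mouse-number block and leaving out mice were alternatives. Mice with the same number in different groups did not deviate together (mean r = -0.036 over 24 pairs). The scripts were tested on simulated data. For 3 mice (24 h mouse 1, 48 h mouse 2, 7 days mouse 2) the header carries mouse number 6; the labels' numbers were used.

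The genes named are the members, genes within 500 kb, the Dynlt1 and Rsph3 copies, the GOST family, CT010467.1, the markers, and the 5 genes most like and most unlike Tmem181b-ps in log2 CPM (prior count 2, mean of at least 2), of which 1 is not reported here. The members and lists were chosen with earlier results of these data known. Whether mice of a group came from separate litters or injections is not given in the sources used here. Floors are for counting error only, since reads had no molecular identifiers. The H3K27ac samples were not analysed here.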

Additional observations from a re-analysis of the deposited data

How the results depend on the processing

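No alternative reversed the direction of a called difference of the members. Directions of small, uncalled differences did reverse: Tmem181a at 7 days was -0.021 with the CT010467.1 covariate (0.07 without it), Tmem181c-ps at 48 h against 24 h was 0.19 with the first libraries alone and -0.302 to 0.018 with 1 mouse left out (above 0 without 24 h mouse 3 or 48 h mouse 1), and Tmem181b-ps at 48 h against 24 h lay on either side of 0, at -0.06 to 0.05 with 1 mouse left out. Tmem181c-ps kept its calls at 24 h and 48 h in every setting except the CT010467.1 covariate (0.99 and 0.81), with log2 differences of 2.34 to 2.56 and 2.17 to 2.47 when 1 mouse was left out. That covariate moved Tmem181b-ps to 0.90 at 24 h, 0.86 at 48 h, 0.26 at 7 days and -0.60 at 7 days against 48 h. Tmem181a at 24 h passed with total counts only (0.48, adjusted p = 0.0409) and in DESeq2 (0.39, adjusted p = 0.0433). Its call at 48 h was lost with no filter (0.40), with the mouse number as a replicate block (0.46, edgeR adjusted p = 0.0585) and with the covariate (0.23), and it was 0.377 to 0.514 with 1 mouse left out. The block changed no other call of the members, and left 1 and 2 of the family genes called at 24 h and 48 h, and 9 and 16 of the 122 pseudogenes.

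Tmem181c-ps passed at 7 days with no filter (1.11, edgeR adjusted p = 0.00450) and in DESeq2 (1.17, adjusted p = 0.0430), and ranged from 0.78 to 1.42 when 1 mouse was left out, passing without 7 days mouse 1 or 3. At 7 days against 48 h it was -1.18 with no filter (edgeR adjusted p = 0.00396), -1.20 in DESeq2 (adjusted p = 0.0496) and -1.57 to -0.93 with 1 mouse left out, passing without 7 days mouse 4. Genes called at 7 days were 958 with no filter, 796 in DESeq2 and 0 to 1342 with 1 mouse left out (1342 without 7 days mouse 1, 1160 without mouse 3). At 7 days against 48 h they were 665 with no filter, 405 in DESeq2, 114 without the 3 mice whose header number differs (chosen after seeing the data) and 0 to 438 with 1 mouse left out (438 without 7 days mouse 4, 394 without mouse 2). At 48 h against 24 h 1 gene was called with no filter. The covariate left 0 at 24 h and 0 at 48 h, and leaving out 1 mouse gave 2550 to 3933 at 24 h (fewest without 24 h mouse 4, vehicle mouse 1 or 2) and 3514 to 4899 at 48 h (fewest without vehicle mouse 1 or 2). The share of Tmem181b-ps per kilobase was 77.8% at 24 h, 78.9% at 48 h and 78.4% at 7 days.

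With total counts only, the median of all genes was 0.14 at 24 h against 0.03 with TMM, and 67.3% of calls were higher against 57.0%. Tmem181c-ps had the fewest counts and the widest spread between libraries, so its size is the least precise.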
